A study of Homo sapiens with 6 samples.

Results

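Metallothioneins and 2 genes that regulate zinc in the cell were compared between SW480 cells carrying a control hairpin and SW480 cells carrying a hairpin against MORC2. The members were 8 genes picked by symbol in the deposited table of 56303 genes, namely the metallothioneins MT2A, MT1E, MT1F, MT1G, MT1M and MT1X, the transcription factor gene MTF1 and the zinc exporter gene SLC30A1. All 8 were in the table, and 6 of them had enough reads to be tested. SW480 is a line from a human colorectal adenocarcinoma, and MORC2 is a nuclear ATPase with a CW-type zinc finger that takes part in gene silencing. The shCtrl group (genotype given as WT) had 3 libraries from cells infected with a lentivirus for a nonsilencing hairpin, and the shMORC2 group (genotype given as MORC2 knockdown) had 3 libraries from cells infected with a lentivirus for a MORC2 hairpin. Per the methods, the infected cells were stable clonal lines selected with puromycin, a drug that both groups had therefore met, and the 3 libraries of a group were replicate experiments. How many hairpins or clones stood behind a group was not stated, so a difference between the selected lines and an effect of the knockdown cannot be told apart, and p-values measure only the spread between these libraries.

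Metallothioneins are small cysteine-rich proteins that bind zinc, copper and cadmium. When zinc rises in the cell, MTF1, the metal-responsive transcription factor, binds short metal response elements in the promoters of metallothionein genes and of SLC30A1, which encodes the transporter ZnT1 that moves zinc out across the plasma membrane. Metallothionein genes are also induced by glucocorticoids and by oxidative stress, and in the gut they buffer zinc within epithelial cells.

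The libraries held 42092664 to 43434425 counts each. MORC2 stood at 46.1, 46.4 and 48.8 CPM in shCtrl replicates 1 to 3 and at 35.03, 29.3 and 27.2 CPM in shMORC2 replicates 1 to 3 (CPM are counts scaled to the library total with TMM factors). The log2 fold change was -0.63 (SE 0.095, adjusted p 0.000216 by edgeR's quasi-likelihood test), leaving 64.7% of the control level. An antisense gene, MORC2-AS1, covers 25.8% of its exon bases. Epithelial markers summed to between 20139 and 26178 CPM in shCtrl and between 19183 and 26070 CPM in shMORC2, with all 8 present. Fibroblast markers summed to 18.4 to 19.4 CPM in shCtrl and 20.8 to 22.9 CPM in shMORC2, mostly from COL1A1 and LUM. COL1A1 and LUM were not called (edgeR adjusted p 0.287 and 0.0778). COL1A2, COL3A1, DCN and PDGFRA never exceeded 12 counts and were not tested. Of these, COL3A1 went down from 4, 9 and 8 to 0, 0 and 0 counts. COL1A2 went down from 10, 8 and 4 to 0, 0 and 4, while DCN and PDGFRA overlapped between the groups. Immune markers summed to 37.96 to 47.6 CPM in shCtrl and 59.2 to 110.4 CPM in shMORC2, mostly from CD68. No marker of these lists was at 0 in all libraries, although PTPRC was at 0 in every shCtrl library and in 1 shMORC2 library, with at most 6 counts elsewhere. Endothelial markers summed to 15.7 to 19.6 CPM in shCtrl and 20.6 to 22.3 CPM in shMORC2, mostly from PECAM1. The fibroblast, immune and endothelial sums did not overlap between the groups. Of all single genes tested, 50.2% did not overlap either, so this does not set the sums apart. CD68 rose from a mean of 34.1 to 82.4 CPM (edgeR adjusted p 0.000296). LYZ and CD14, the other immune markers tested, were not called (edgeR adjusted p 0.584 and 0.140). The part of these marker sums in the results that follow was not tested.

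The 6 metallothionein members lie within 76.0 kb of chromosome 16 (56608199 to 56684196, GRCh38, as the count table gives them), MT1G on the minus strand and the others on the plus strand. MT2A spans 56608199 to 56609497, MT1E 56625475 to 56627112, MT1M 56632233 to 56633986, MT1F 56657694 to 56660698, MT1G 56666731 to 56668065 and MT1X 56682424 to 56684196. MTF1 (37809567 to 37859620) and SLC30A1 (211571568 to 211578742) are both on the minus strand of chromosome 1. GENCODE v44 lists a protein-coding gene of the same symbol and strand at each of the 8 places. The coding parts of the 6 metallothioneins, of 183 bases or, for MT1G, 186, were 88.5% to 94.1% identical over their 15 pairs. The longest run of identical bases between transcripts of such a pair had a median of 53.0 and a maximum of 96 bases, the latter between MT1G and MT1X. The treatment of reads that fit several genes was not stated, so how the reads were divided among these genes is uncertain.

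Of the members, RefSeq (GRCh38.p14) had promoters for MT1X, MT2A, MTF1 and SLC30A1, which is 4 of 8. The 250 bases before the start are shown for 3 of them, because they differ in how many cores of the metal response element they hold. The core searched was TGCACNC or TGCGCNC on either strand, and capitals mark each match. MT2A (chr16:56608334-56608583, plus strand) held 7 matches that did not overlap each other, 5 on the plus and 2 on the minus strand of the gene. MT1X (chr16:56682220-56682469, plus strand) held 4 and SLC30A1 (chr1:211579162-211579411, minus strand) held 1.
MT2A: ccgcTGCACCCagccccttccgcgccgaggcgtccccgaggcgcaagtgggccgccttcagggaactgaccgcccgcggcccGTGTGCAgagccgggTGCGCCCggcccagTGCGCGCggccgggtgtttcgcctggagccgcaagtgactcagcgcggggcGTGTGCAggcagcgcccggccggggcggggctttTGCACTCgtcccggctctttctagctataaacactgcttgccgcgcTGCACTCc
MT1X: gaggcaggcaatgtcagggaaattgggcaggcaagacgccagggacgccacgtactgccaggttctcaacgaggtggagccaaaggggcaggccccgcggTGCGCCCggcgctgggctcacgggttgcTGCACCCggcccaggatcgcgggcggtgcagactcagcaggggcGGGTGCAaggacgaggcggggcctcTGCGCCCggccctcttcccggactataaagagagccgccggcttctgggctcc
SLC30A1: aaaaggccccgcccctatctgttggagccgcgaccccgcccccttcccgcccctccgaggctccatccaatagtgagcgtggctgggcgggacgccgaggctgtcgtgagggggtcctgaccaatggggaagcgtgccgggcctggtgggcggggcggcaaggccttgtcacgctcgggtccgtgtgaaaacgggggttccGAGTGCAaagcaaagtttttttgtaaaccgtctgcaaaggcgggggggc
Since the count table starts MT2A at 56608199, before the RefSeq start, the window shown lies inside the counted MT2A region. The same window of MTF1 (chr1:37859593-37859842, minus strand) held 0 matches. Among 35116 RefSeq promoters, at least 1 match was found in 24.8%, at least 4 in 0.370% and at least 7 in 0.0313%. A match describes letters in the window and does not show that a factor is bound there.

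MT2A, the most abundant metallothionein of these cells, was higher in all 3 shMORC2 libraries. It had 8027, 7927 and 9170 counts in shCtrl, or 183, 187 and 223 CPM, and 13643, 16266 and 17161 counts in shMORC2, or 308, 391 and 403 CPM. The groups did not overlap, and the lowest shMORC2 library, replicate 1, was the one with the most MORC2 reads of that group. A relation between MT2A and the MORC2 left in these 3 libraries was not tested. The mean rose from 198 ± 21.9 to 367 ± 51.9 CPM (SD, n = 3 each), which edgeR put at 1.86-fold (95% interval 1.58 to 2.18) or a log2 fold change of 0.89 (SE 0.11, adjusted p 3.59e-05). Each of the 15 alternatives called it as well, at 0.82 to 1.01 on the log2 scale. In bulk RNA, more cells that express a gene and more RNA per cell cannot be told apart.

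MT1E, a metal-binding MT1 form encoded near MT2A, was also higher in every shMORC2 library, at a far lower level. Its counts were 65, 65 and 46 in shCtrl (1.48, 1.54 and 1.12 CPM) and 150, 107 and 125 in shMORC2 (3.38, 2.57 and 2.94 CPM). Here shMORC2 replicate 1 was the highest of its group, the opposite of its place for MT2A. The mean rose from 1.38 ± 0.228 to 2.96 ± 0.406 CPM (SD, n = 3 each), which is 2.14-fold (95% interval 1.59 to 2.88) (log2 fold change 1.10, SE 0.20, edgeR adjusted p 0.000767). All 15 alternatives called it, and the lowest log2 fold change, 0.72, came on the log2(RPKM + 1) scale, which understates changes of low genes.

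MT1G, another MT1 form, had 29, 14 and 28 counts in shCtrl (0.662, 0.331 and 0.681 CPM) and 44, 32 and 46 counts in shMORC2 (0.992, 0.769 and 1.08 CPM). The lowest shMORC2 library lay above the highest shCtrl library. At 0.76 on the log2 scale the difference was not called (SE 0.33, 95% interval 0.050 to 1.47, edgeR adjusted p 0.0832). With the replicate number as a block it was called, at 0.78 (adjusted p 0.0475), which was its only call among 15 alternatives, and without shCtrl replicate 2 it was 0.49 (adjusted p 0.266, the highest of them).

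MT1X, the second most abundant metallothionein member, was at 4.79, 5.23 and 6.73 CPM in shCtrl and at 5.12, 8.79 and 7.26 CPM in shMORC2. The groups overlapped, because shMORC2 replicate 1 stood below 2 of the shCtrl libraries. The difference, 0.34 on the log2 scale, was not called (SE 0.19, 95% interval -0.065 to 0.74, edgeR adjusted p 0.171). The replicate block called it at 0.32 (adjusted p 0.0412), as did the fit without shMORC2 replicate 1 at 0.53 (adjusted p 0.0143), while without shMORC2 replicate 2 it was 0.15 (adjusted p 0.595, the highest of all alternatives). A noncoding gene on the same strand, RP11-343H19.2, covers 321 of the 1773 exon bases of MT1X merged over all transcripts (18.1%). The canonical MT1X transcript has only 404 bases, and the share of it that is covered was not measured. The counts of RP11-343H19.2 were 0.876 to 0.914 of those of MT1X in every library. How reads over both genes were counted was not stated.

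MT1F had 6, 4 and 0 counts in shCtrl and 9, 4 and 12 in shMORC2 and did not pass the filter on low counts. Without a filter its adjusted p was 0.285 and 0.308 in the 2 alternatives that kept it. MT1M had 1 count in shCtrl replicate 2 and 1 in shMORC2 replicate 3 and was at 0 in the 4 other libraries, all of them at or under the detection floor of 3 counts. No difference in MT1M was detectable at this depth, and floors cover counting error only.

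**Figure D1:**
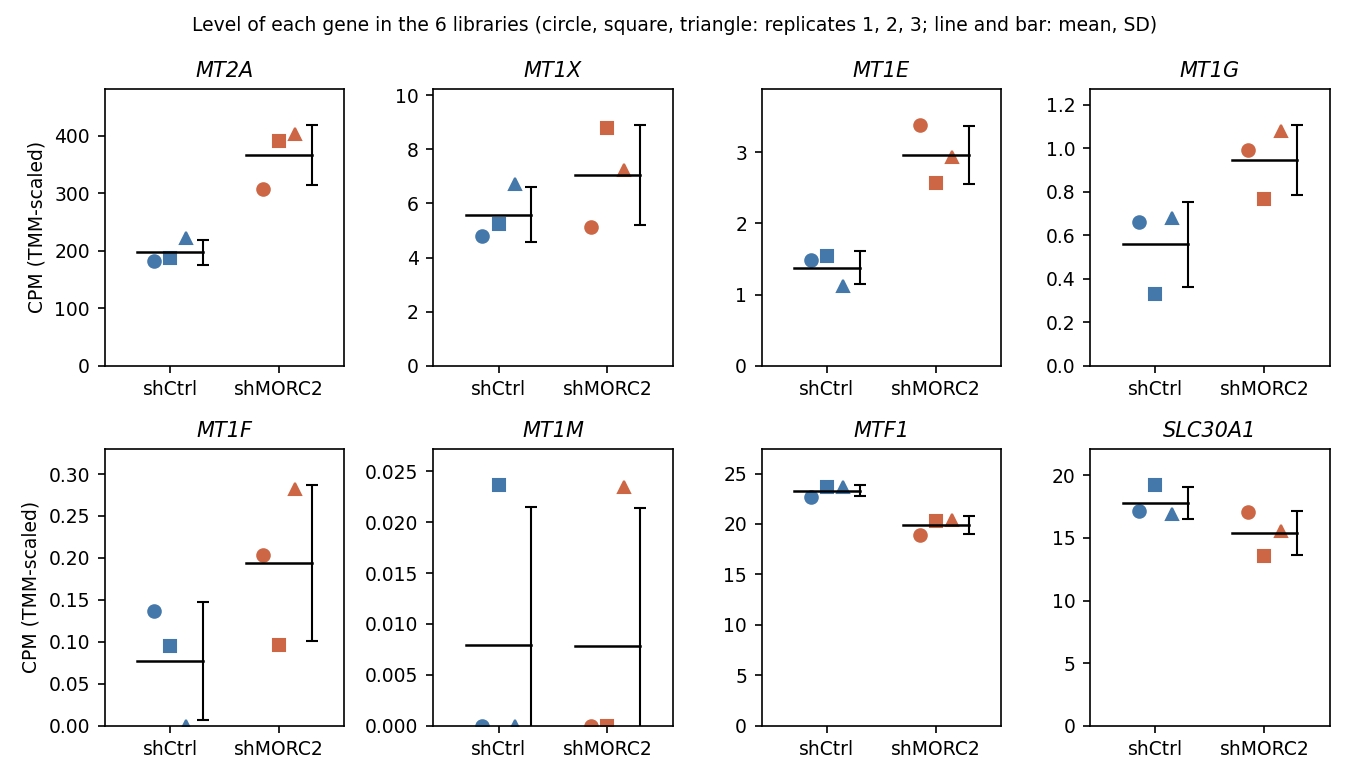
Level of each of the 8 genes in TMM-scaled CPM (y axis from 0, a scale of its own for each gene) in the 3 shCtrl (blue) and 3 shMORC2 (orange) libraries, with circles, squares and triangles for replicates 1, 2 and 3, lines for group means and bars for SD. MT2A, MT1E and MT1G do not overlap between the groups and are higher in shMORC2, MTF1 does not overlap and is lower, and MT1X, MT1F, MT1M and SLC30A1 overlap.

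MTF1, the metal-sensing factor, went the other way from MT2A and MT1E. It was at 22.7, 23.6 and 23.6 CPM in shCtrl and at 18.9, 20.3 and 20.4 CPM in shMORC2, with no overlap. The mean fell from 23.3 ± 0.548 to 19.9 ± 0.865 CPM (SD, n = 3 each), or to 85.3% of the control level (log2 fold change -0.23, SE 0.083, edgeR adjusted p 0.0418). The call stood near the threshold: it was kept in 4 of 15 alternatives, with adjusted p from 0.0147 to 0.133, and was lost whichever of the 6 libraries was left out and under DESeq2 (adjusted p 0.0665). The direction was the same in all 15.

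SLC30A1, the zinc exporter gene, was at 17.2, 19.22 and 16.9 CPM in shCtrl and at 17.1, 13.6 and 15.6 CPM in shMORC2. Replicate 1 of shMORC2 lay among the shCtrl libraries and the other 2 lay below them. The difference, -0.20 on the log2 scale, was not called (SE 0.10, 95% interval -0.43 to 0.021, edgeR adjusted p 0.140). In fold the interval runs from 0.743 to 1.01. Without shMORC2 replicate 1 it was called, at -0.28 (adjusted p 0.0480), and without shMORC2 replicate 2 it was -0.12 (adjusted p 0.445). None of the other 14 alternatives called it, with an adjusted p of up to 0.445.

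Counted together, 3 of the 6 members tested were called, 2 higher (MT2A and MT1E) and 1 lower (MTF1). Over all 21005 genes tested the test called 39.5%, with 19.9% higher and 19.6% lower, so that a call as such does not set these genes apart. The groups did not overlap for 4 of the 6, against 50.2% of all genes tested. Of these, 3 were higher and 1 lower in shMORC2, where all genes gave 25.1% in each direction. The median log2 fold change was 0.83 for the 4 metallothioneins tested and -0.0056 over all genes tested. With the replicate number as a block the members called were 5, against 49.0% of all genes. The other 14 alternatives called 2 to 4 members. They called 34.9% of all genes with DESeq2, 38.7% without TMM, 39.4% with DESeq2 size factors, 23.6% without a filter and 41.2% with at least 10 counts in every library of a group. The limma fits called 42.3%, 42.0% and, unfiltered, 14.9%. Leaving out shCtrl replicates 1 to 3 in turn gave 36.7%, 29.8% and 31.0%, and leaving out shMORC2 replicates 1 to 3 gave 39.2%, 30.3% and 29.0%.

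**Figure D2:**
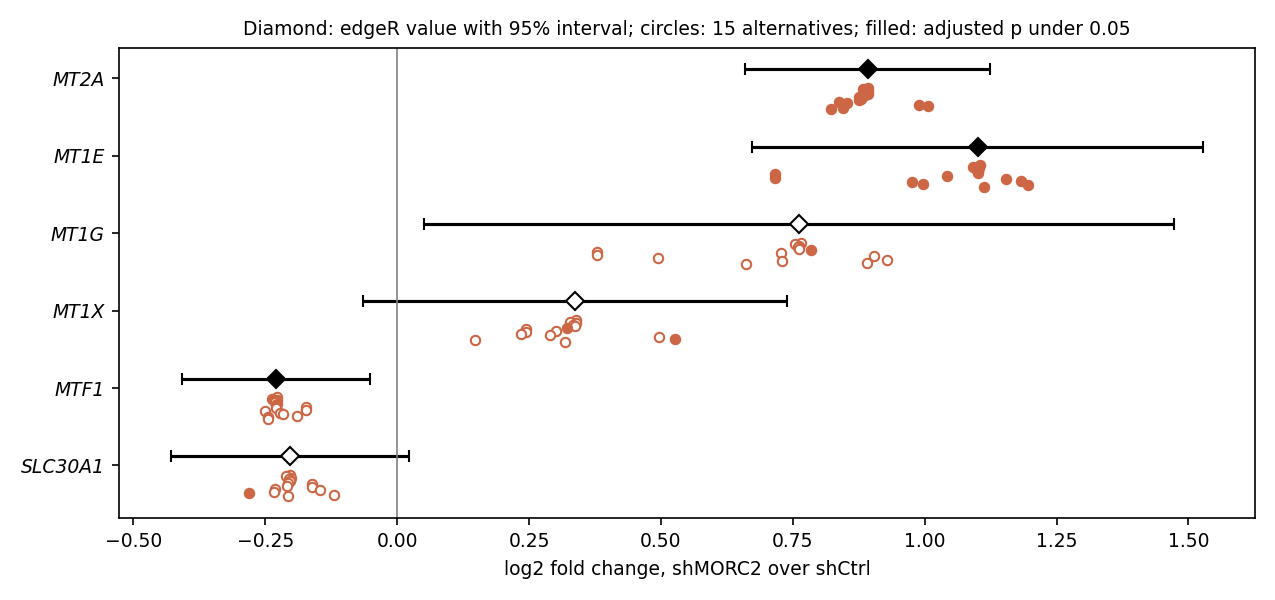
Log2 fold change of shMORC2 over shCtrl (x axis) for the 6 members tested. Diamonds give the edgeR value with its 95% interval, circles the 15 alternatives, and filled symbols an adjusted p under 0.05. All symbols of MT2A and MT1E are filled and lie at 0.72 or above, while those of MTF1 and SLC30A1 all lie below 0 and are mostly open.

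Because reads of near-identical genes can be split between them, the 6 metallothioneins were also summed in each library. The sum was 190, 195 and 231 CPM in shCtrl and 317, 403 and 415 CPM in shMORC2. It rose with MT2A, which made up 96.3% of it in each shCtrl library and 96.9% to 97.2% in the shMORC2 libraries. The mean went from 205 ± 22.7 to 378 ± 53.1 CPM (SD, n = 3 each), a log2 ratio of 0.88, given here without a test. The sum leaves out MT1A of the same cluster, whose coding part was 94.5% identical to that of MT1E. Summed over all metallothionein genes in the counts, MT1A among them, the log2 ratio was 0.87. Without MT2A the 5 MT1 members summed to 7.07, 7.21 and 8.53 CPM in shCtrl and 9.69, 12.2 and 11.6 CPM in shMORC2, with a log2 ratio of 0.55 and no overlap.

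Ratios between members were taken within each library. There were 38.2, 35.9 and 33.1 MT2A counts per MT1X count in shCtrl and 60.1, 44.4 and 55.5 in shMORC2, a ratio that needs no scaling of the libraries. These groups did not overlap (difference in log2 ratio 0.57, exact two-sided permutation test p 0.1, the smallest that 3 against 3 allows). For MT2A over MT1E the ratios were 123, 122 and 199 in shCtrl and 90.95, 152 and 137 in shMORC2, which overlapped (difference -0.22, exact two-sided permutation test p 0.6). For MT1E over MT1X the difference was 0.79 (exact two-sided permutation test p 0.3). These 3 ratios, of 5 that were computed and that share genes, could not pass 0.05 in this design.

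**Figure D3:**
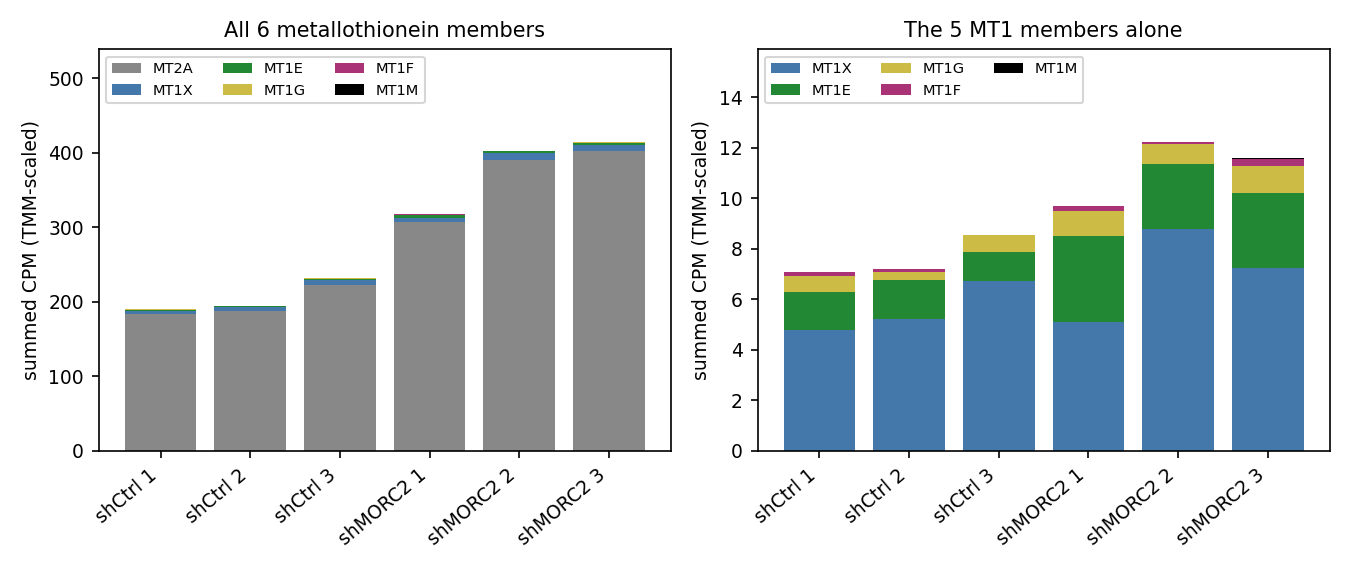
Summed level of the metallothionein members in each library in TMM-scaled CPM (y axis from 0), stacked by gene, for all 6 members (left) and for the 5 MT1 members without MT2A (right). MT2A fills nearly the whole bar on the left, and on the right MT1X and MT1E make up most of each bar.

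Levels of different genes were set side by side per length, in RPKM (reads divided by exon length and library total). In shCtrl the order was MT2A (152, range 145 to 168), SLC30A1 (3.26, range 3.02 to 3.53), MT1X (3.15, range 2.77 to 3.71), MTF1 (2.91, range 2.88 to 2.96), MT1E (1.32, range 1.04 to 1.47), MT1G (0.745, range 0.443 to 0.904), MT1F (0.0415, range 0 to 0.0743) and MT1M (0.0084, range 0 to 0.0252). SLC30A1 and MT1X, MT1X and MTF1, and MT1F and MT1M did not differ beyond the spread of their 3 libraries. In shMORC2 the RPKM was 281 for MT2A, 3.95 for MT1X, 2.81 for SLC30A1 and for MT1E, 2.47 for MTF1 and 1.26 for MT1G. MT2A ranked 276th of 36613 genes with a count in shCtrl and 164th in shMORC2. The exon length behind these values merges all transcripts, which for MT1X (1773 bases) and MT2A (1299 bases) is far longer than the canonical transcripts of 404 and 401 bases. Per kilobase of the canonical transcript, MT1X stood at 13.8 in shCtrl, above SLC30A1 (3.02) and MTF1 (2.94), and MT2A at 494.

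The table held 13 further metallothionein genes and pseudogenes, of which 9 had fewer than 10 counts in all, 5 of them 0. MT1A, a gene of the same cluster, was at 4.20, 3.29 and 4.64 CPM in shCtrl and 5.52, 6.94 and 6.08 CPM in shMORC2. It rose without overlap (log2 fold change 0.61, SE 0.15, edgeR adjusted p 0.00686) and was called in all 15 alternatives. MT3, the metallothionein first found in brain, had 0, 4 and 2 counts in shCtrl and 11, 10 and 16 in shMORC2 (edgeR adjusted p 0.0102). It passed the filter only through shMORC2, and its fitted log2 fold change of 2.54 (SE 0.69) rests on few reads. Without shMORC2 replicate 3 it was not called (adjusted p 0.0533). The pseudogene MT1P3 on chromosome 20 fell, with 20, 28 and 28 counts against 10, 10 and 17 (log2 fold change -1.05, SE 0.38, edgeR adjusted p 0.0427). The call held in 9 of 15 alternatives. It was lost under DESeq2 (adjusted p 0.118) and in edgeR without a filter on low counts (adjusted p 0.0503). Leaving out shCtrl replicate 2 or 3 or shMORC2 replicate 1 or 2 lost it too. An antisense transcript gene, MMP24OS, shares its exon on the other strand, and whether the counting used strand was not stated. MT1DP had 4, 0 and 0 counts against 6, 3 and 4 and was not tested.

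The surroundings of the cluster were compared next. Within 500 kb of it, 16 genes other than metallothioneins were tested, of which 5 were higher, 1 lower and 10 not called (37.5% called, against 39.5% of all genes). Their median log2 fold change was 0.14. The nearest tested genes that do not overlap a metallothionein were BBS2 (a gene of the primary cilium) on one side (log2 fold change -0.052, SE 0.077, edgeR adjusted p 0.624) and NUP93 (a nuclear pore protein) on the other (0.080, SE 0.075, edgeR adjusted p 0.429). Farther out, OGFOD1, an oxygenase gene, was at 39.5, 36.2 and 37.2 CPM in shCtrl and 50.4, 47.4 and 50.5 CPM in shMORC2 (log2 fold change 0.39, SE 0.076, edgeR adjusted p 0.00126). HERPUD1, which acts in the degradation of endoplasmic reticulum proteins, was at 14.5, 31.7 and 16.4 CPM in shCtrl and 13.1, 9.66 and 9.51 CPM in shMORC2 (log2 fold change -0.96, SE 0.23, edgeR adjusted p 0.00572). Without shCtrl replicate 2, its highest library, the value was -0.53 (adjusted p 0.0185). The 16 include RP11-343H19.2, whose exons MT1X shares.

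**Figure D4:**
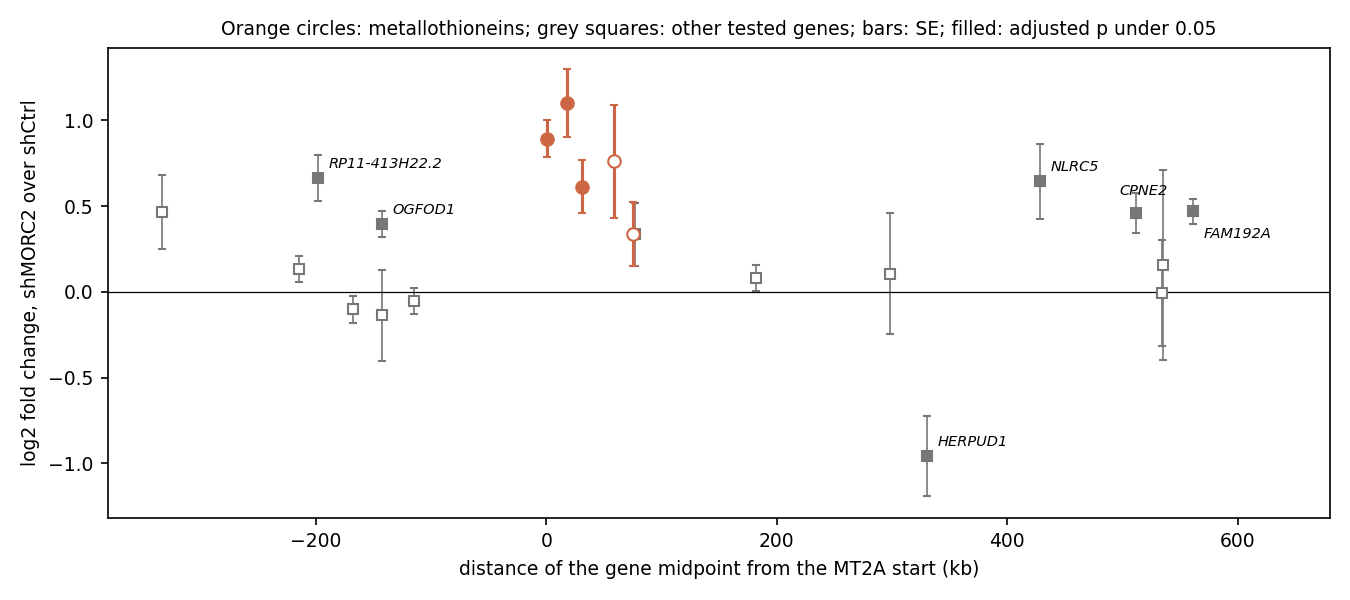
Log2 fold change of shMORC2 over shCtrl (y axis, bars SE) against the distance of each gene's midpoint from the start of MT2A in kb (x axis). Orange circles are MT2A, MT1E, MT1A, MT1G and MT1X, grey squares the 16 other genes tested within 500 kb of the cluster, and filled symbols have an adjusted p under 0.05. MT3 is left out of the plot. The 5 metallothioneins lie between 0.34 and 1.10, and of the squares 11 lie above 0 and 5 below, from -0.96 to 0.66.

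Zinc leaves the cytosol through ZnT proteins of the SLC30 family and enters it through ZIP proteins of the SLC39 family. Of 9 further SLC30 genes, 7 were tested and 2 were called higher and 1 lower (42.9%, against 39.5% of all genes), with a median log2 fold change of -0.14. SLC30A3, whose product loads zinc into synaptic vesicles, rose from 2.87, 2.37 and 1.87 to 5.57, 4.83 and 4.25 CPM (log2 fold change 1.04, SE 0.18, edgeR adjusted p 0.000599). SLC30A6, a Golgi transporter gene, was called in 5 of 13 alternatives (log2 fold change 0.39, SE 0.14, edgeR adjusted p 0.0441). DESeq2 did not call it (adjusted p 0.0702), and of the 6 libraries only the removal of shCtrl replicate 1 kept its call. SLC30A7, another Golgi transporter gene, was lower (log2 fold change -0.50, SE 0.15, edgeR adjusted p 0.0154) and lost its call without shCtrl replicate 3 and without either of shMORC2 replicates 2 and 3. The count of 3 was 1 without shCtrl replicate 3, without shMORC2 replicate 2 and without shMORC2 replicate 3.

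Of 14 SLC39 genes, 12 were tested and 4 were called higher and 1 lower (41.7%), against 39.5% of all genes, with a median log2 fold change of 0.017. SLC39A10, which encodes an importer of the plasma membrane, fell from 43.2, 38.0 and 44.4 to 33.7, 32.7 and 31.3 CPM (log2 fold change -0.36, SE 0.084, edgeR adjusted p 0.00405) and was called in all 15 alternatives. The 4 called higher had smaller changes. SLC39A7, which releases zinc from the endoplasmic reticulum, went from 104, 112 and 106 to 119.7, 134 and 134 CPM (log2 fold change 0.27, SE 0.076, edgeR adjusted p 0.0127). SLC39A13, SLC39A4 (the intestinal importer) and SLC39A9 stood at 0.35, 0.29 and 0.24 on the log2 scale (edgeR adjusted p 0.0133, 0.0449 and 0.0293). DESeq2 did not call SLC39A4 (adjusted p 0.0546). Each of these 4 lost its call when some libraries were left out: SLC39A7 shMORC2 replicate 2 or 3, SLC39A13 shCtrl replicate 1 or shMORC2 replicate 3, SLC39A4 all but shCtrl replicate 3 and shMORC2 replicate 1, and SLC39A9 all but shCtrl replicate 1 and shMORC2 replicate 2. The count of 5 was 3 without shCtrl replicate 1, without shCtrl replicate 2 and without shMORC2 replicate 2, and 1 without shMORC2 replicate 3.

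Metallothioneins also bind copper, and 12 genes of copper handling were followed for that reason. Of 11 tested, 5 were called higher and 2 lower (63.6%, against 39.5% of all genes), with a median log2 fold change of 0.13. ATP7B, a copper-exporting ATPase, rose from 4.81, 5.18 and 4.21 to 10.03, 9.92 and 9.39 CPM (log2 fold change 1.05, SE 0.12, edgeR adjusted p 2.50e-05). The chaperone gene COX17 was at 47.7, 35.04 and 45.1 CPM in shCtrl and at 67.0, 75.6 and 75.4 CPM in shMORC2 (0.77 on the log2 scale, edgeR adjusted p 0.000108), and ATOX1 went from 13.8, 14.2 and 15.4 to 20.1, 26.7 and 23.6 CPM (0.70, edgeR adjusted p 0.000254). All 3 were higher in every shMORC2 library. The metalloreductase genes STEAP2 and STEAP3 were lower, at -0.87 (SE 0.12, edgeR adjusted p 0.000113) and -0.61 (SE 0.078, edgeR adjusted p 5.60e-05) on the log2 scale. The remaining 2 called higher were SOD1 and CCS. The importer gene SLC31A1 went from 25.7 ± 1.31 to 28.2 ± 1.98 CPM (SD, n = 3 per group) and was not called (edgeR adjusted p 0.237).

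Glucocorticoids also induce metallothionein genes. A list of the receptor gene NR3C1 and 9 genes of the response or, for HSD11B2, of cortisol inactivation was read beside them. Of 9 tested, edgeR called 0 higher and 4 lower (44.4%, against 39.5% of all genes, or 19.6% for the lower direction). DESeq2 also called 0 higher and 4 lower, against 34.9% of all genes in either direction. At an unadjusted edgeR p under 0.05, 1 was higher and 6 were lower. The share of all genes at that threshold was not counted, so this does not set the list apart. The median log2 fold change was -0.39. DUSP1, a phosphatase gene, was at 6.05, 15.8 and 9.68 CPM in shCtrl and 4.58, 4.66 and 6.08 CPM in shMORC2 (log2 fold change -1.04, SE 0.26, edgeR adjusted p 0.00644), with overlapping groups. Without shCtrl replicate 2, the highest library, the value was -0.62 (adjusted p 0.0369). HSD11B2, whose enzyme inactivates cortisol, was at -0.39 on the log2 scale (edgeR adjusted p 0.0149) and lost its call without shCtrl replicate 1 or shMORC2 replicate 3. NFKBIA, an inhibitor of NF-kB, was at -0.35 (edgeR adjusted p 0.0135) and lost it when shCtrl replicate 3 or either of shMORC2 replicates 2 and 3 was left out. The fourth was KLF9, a transcription factor gene with a mean under 100 counts (edgeR adjusted p 0.000118), named here after its values were seen. NR3C1, FKBP5, TSC22D3 and PER1 were not called, at -0.52, -0.11, -0.15 and -0.47 on the log2 scale (edgeR adjusted p 0.0587, 0.380, 0.599 and 0.0615). Their values are also given after having been seen. SGK1, a kinase gene, was the 1 higher at an unadjusted p, at 0.639, 0.378 and 0.778 CPM in shCtrl and 1.40, 1.35 and 0.658 CPM in shMORC2 (log2 fold change 0.92, edgeR adjusted p 0.0539), with overlapping groups and calls in 4 of 13 alternatives. ZBTB16, a transcription factor gene that did not pass the filter, had 0, 2 and 0 counts in shCtrl and 8, 12 and 10 in shMORC2, and edgeR without a filter called it higher (adjusted p 0.00354). Both were named after their values were seen. With the replicate block the list had 1 call higher, SGK1, and 6 lower, which is 7 in all.

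**Figure D5:**
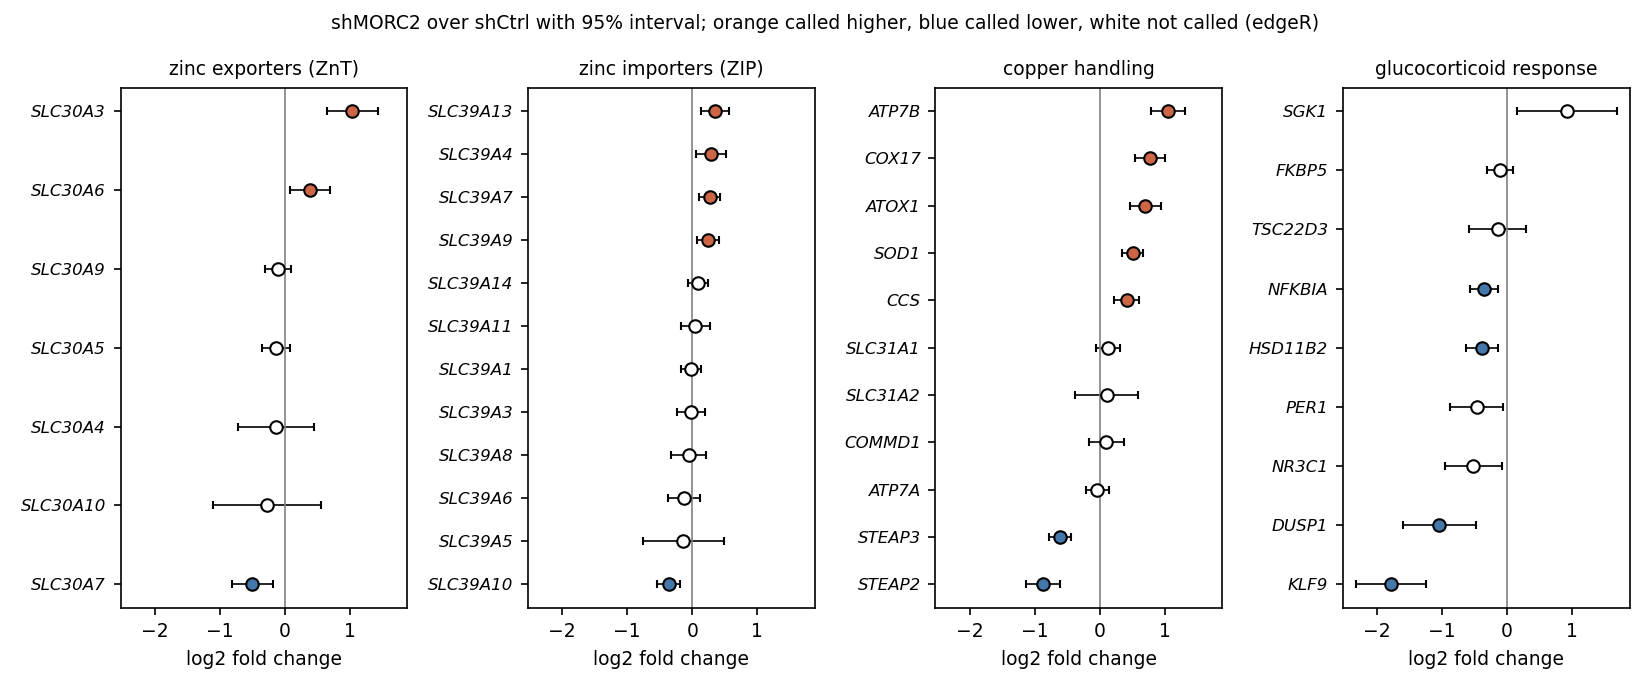
Log2 fold change of shMORC2 over shCtrl with its 95% interval (x axis) for the tested genes of 4 lists. Orange points were called higher, blue points lower and white points not called. Called genes lie on both sides of 0 in the zinc exporter, zinc importer and copper lists, and on the lower side in the glucocorticoid list, where SGK1 lies at 0.92 without a call and ZBTB16 was not tested.

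Profiles over the 6 libraries were compared with those of 14334 other genes that averaged 100 counts or more, as a description. The genes most like MT2A in log2 CPM were TMEM8B, MFAP2 and DAG1, with Pearson's r of 0.999, 0.999 and 0.998. For MTF1 they were CTD-2231E14.2, FGFR4 and TM4SF1, with r of 0.999, 0.998 and 0.998. A shared group difference raises r, and 14.3% of the genes were above 0.9 with MT2A and 11.5% with MTF1. The genes named were the 3 highest of 14334 for each member, and what lifted them above the rest was not tested. For SLC30A1, whose groups overlapped, 0.949% of the genes were above 0.9, and the highest were ATF4P3, ARHGAP39 and ATF4P4, with r of 0.992, 0.985 and 0.980. The 1449 splicing events listed by the authors were in 1181 genes, beside 56303 genes in the count table, and 0 were in the 8 members. With events in so small a share of genes, that count does not set the members apart. Of the lists and markers used here, ATP7B, PECAM1, PER1, SLC30A5, SLC30A6, SLC31A1, SOD1, STEAP2 and VIL1 were among the genes with an event.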

How the data were processed

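Gene expression was measured by stranded mRNA sequencing in 3 shCtrl and 3 shMORC2 libraries of SW480 cells. Raw counts for each gene were deposited, and the submitters' processing notes name Trimmomatic 0.36, STAR 2.5.3a, featureCounts of Subread 1.5.1 and edgeR 3.12.1 with GRCh38. The annotation release, the strand setting, the treatment of multi-mapping reads and how molecular identifiers were collapsed were not given in the sources used here. The deposited RPKM equal those counts divided by exon length and library total (100% of values within a relative 1e-06). The deposited list of splicing events also holds the authors' p-values, inclusion levels and differences, of which none were used. The tables had 0 columns of other samples.

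Counts were tested in edgeR 4.0.16 (R 4.3.3): filterByExpr, TMM and a quasi-likelihood model of group alone, with p-values adjusted by Benjamini-Hochberg for 21005 genes and called at 0.05. The SE is the log2 fold change divided by the square root of F. The fits were tested on simulated data. Alternatives were DESeq2 1.42.0, 2 other scalings, 2 other filters, the replicate block, limma 3.58.1 on log2(RPKM + 1) and log2(RPKM + 0.1) for a mean RPKM of at least 1, log2(RPKM + 1) without a filter, and each library left out. The deviations of same-numbered libraries correlated at 0.333, 0.165 and 0.149, and those of differently numbered ones at -0.255 to 0.121. The methods state no pairing. The main model and the ratio tests therefore used none, and the replicate block was kept as an alternative. No pair of replicates was as close as sampling noise (chi-square per degree of freedom 6.78 to 23.7).

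Members and lists were chosen with earlier results of these data known. Named genes were the members, MORC2, other metallothioneins with at least 10 counts, in each list up to 5 called genes averaging 100 counts or more, and the 3 most similar profiles of MT2A, MTF1 and SLC30A1. The cell type markers, the genes near the cluster and the features of overlapping exons were added beside these. So were SLC31A1, SOD1, CCS, KLF9, NR3C1, FKBP5, TSC22D3, PER1, SGK1 and ZBTB16.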

Additional observations from a re-analysis of the deposited data

How the results depend on the processing

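MT2A and MT1E kept their direction and call in all 15 alternatives, and no member changed direction in any. The members called numbered 5 with the replicate block, which added MT1G and MT1X, and 2 to 4 when a library was left out. For the summed metallothionein level the log2 ratio was 0.55 without MT2A, an alternative chosen after seeing the data, and 0.81 to 0.99 when a library was left out.

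For the lists, limma on log2(RPKM + 1) and on log2(RPKM + 0.1) called 0 zinc exporters each, but their RPKM filter left 2 exporters to test and none of the 3 called ones. They called 3 zinc importers each, of 10 tested, and limma without a filter 1 exporter and 2 importers. Leaving out a library gave 1 to 3 exporters, 1 to 5 importers and 3 to 5 glucocorticoid genes. The glucocorticoid count was 8 (2 higher, 6 lower) of 10 tested without a filter on counts, 7 with the replicate block and 1 with unfiltered limma. Of the genes near the cluster, unfiltered limma called 3, leaving out a library 5 to 7, and a window of 1000 kb held 14 calls among 31 genes tested (45.2%, against 39.5% of all genes). For the unfiltered limma, block and left-out library counts the cause was not tested. The replicate block called 49.0% of all genes, against 39.5% in the main fit. It left the exporter, importer and copper counts unchanged and called 7 genes near the cluster, against 6. Among the markers tested it called 4 of 8 epithelial, 1 of 2 fibroblast and 2 of 2 endothelial genes, against 2, 0 and 1 in the main fit. At this depth MT1F and MT1M could not be judged.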
